A study of Mus musculus with 6 samples.

Results

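The genes described here are 45 mouse genes that act in the G2 phase, at entry into mitosis, on the mitotic spindle or in the division that follows. They were taken by name from a fixed list and matched to Ensembl identifiers in the authors' table of estimated counts per gene. Of the 45 genes, 44 were in the table and all 44 were kept by the filter on low counts, out of 12929 genes tested in the whole series. Gtse1 was not analysed here. The libraries came from B16F10, a mouse melanoma line of C57BL/6 origin. Cells were plated at 500 per 50 µl of Matrigel, a basement membrane extract at 7 mg/ml, and grew as spheroids. The BMP2 group received bone morphogenetic protein 2 at 100 ng/ml for 10 days, and the PBS group, titled as untreated, received the vehicle over the same 10 days. The experiment was carried out 3 times, so each of batches 1, 2 and 3 held 1 BMP2 and 1 PBS culture, and libraries are named below by group and batch. All cultures were of a single line without a genetic change named in the labels, and the labels do not say how many spheroids entered each library.

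Passage through mitosis is driven by the kinase CDK1 bound to cyclins A and B, with Polo-like and Aurora kinases acting beside it on centrosomes, kinetochores and the spindle. The spindle assembly checkpoint holds back the anaphase-promoting complex (APC/C), a ubiquitin ligase, until every chromosome is attached. Most of the genes concerned are transcribed late in the cell cycle and are nearly silent in resting cells, so their summed messenger RNA is widely used as an index of cycling cells. In melanoma, as in other tumours, these genes form part of the common proliferation signatures.

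The 6 libraries held 27821911 to 36856498 estimated counts. The library PBS 1 stood apart from the others: along the leading principal component (50.0% of the variance) it lay at -79.7, and the other 5 libraries at -16.8 to 55.5. Its TMM scaling factor was 0.872, against 0.975 to 1.087 in the others, and pseudogenes took 2.81% of its counts, against 1.83% to 2.37%. Mitochondrial genes took 4.12% to 4.62% of counts in all 6 libraries. The 10 melanocyte and melanoma markers together reached 29300 to 39900 CPM (counts scaled to TMM-adjusted library size) in BMP2 libraries and 23900 to 27000 CPM in PBS libraries. Fibroblast markers summed to 3.55 to 7.51 CPM in BMP2 libraries and 5.26 to 10.5 CPM in PBS libraries, leukocyte markers to 3.48 to 6.54 and 5.18 to 6.41 CPM, endothelial markers to 0.723 to 2.16 and 1.04 to 1.75 CPM, and 4 keratinocyte markers to at most 0.0608 CPM. The leukocyte marker Adgre1, the endothelial markers Cdh5 and Tek, and the keratinocyte markers Krt10, Trp63 and Dsg3 were under 0.5 counts in every library. PBS 1 was the lowest library for 9 of the 10 melanocyte markers, all but Dct, a pattern not counted over all tested genes. Its level was 0.112 times the mean of the other 5 libraries for Gpr143, 0.174 times for Slc45a2 and 0.255 times for Tyr, all pigmentation genes. In edgeR's test over all genes, described below, 0 of the 10 markers passed on treatment alone. With batch as a block 1 of 10 passed, against 0.735% of all tested genes. That was Gpr143 (log2 fold change 1.75, SE 0.15, edgeR adjusted p 0.019), higher with BMP2 by 2.04, 1.64 and 1.59 in batches 1, 2 and 3. Without the block, 3 of 10 markers had an unadjusted edgeR p under 0.05, against 5.38% of all tested genes. With the block 10 of 10 did, against 17.0%. All 10 markers were higher with BMP2 in all 3 batches, as were 22.8% of all tested genes. The median marker stood at -0.20, 0.48 and 0.60 in BMP2 1, BMP2 2 and BMP2 3, and at -0.59, -0.26 and -0.03 in PBS 1, PBS 2 and PBS 3, relative to each gene's mean on the log2 scale. Within batches 1, 2 and 3 the median log2 difference of these markers was 0.47, 0.58 and 0.57, and their part in the results below was not tested.

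None of the 44 mitotic genes passed the test between BMP2 and PBS cultures over all genes. With edgeR's quasi-likelihood test and Benjamini-Hochberg adjustment over all genes, 0 of 44 passed at 0.05, and the lowest adjusted p among them was 0.883. Over all tested genes 0.0464% passed, 0.00773% higher and 0.0387% lower with BMP2. With batch as a block 0 of 44 passed as well, against 0.735% of all genes (0.371% higher and 0.364% lower), with 0.123 for Smc4 as the lowest adjusted p, and with the Wald test of DESeq2 0 of 44 passed against 1.01% of all genes. At an unadjusted p under 0.05, 2 of 44 genes were lower with BMP2 without the block and 6 with it, which is 4.55% and 13.6% of the members, against 5.38% and 17.0% of all tested genes in either direction, and 2.85% and 8.89% to the lower side. The log2 fold changes, BMP2 minus PBS, nevertheless lay mostly on the same side, with 40 of the 44 below 0 and 4 above. Their median was -0.40 on treatment alone, while the median of all tested genes was 0.01. With the block the median of the members was -0.26, again with 40 below 0, and that of all tested genes was 0.01. The standard errors (SE) of the members' log2 fold changes lay between 0.17 and 0.57 in the fit on treatment alone and between 0.12 and 0.36 in the blocked fit. There the 6 genes with an unadjusted p under 0.05 were Smc4, Ckap5, Bub1, Cdc25b, Cks2 and Aurkb, with log2 fold changes of -0.46 to -0.67 and adjusted p of 0.123 to 0.283. In bulk RNA, fewer cells in G2 or mitosis and less of these messages per cell cannot be told apart.

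The shift was not shared evenly by the libraries. Added up, the 44 genes reached 3107, 3040 and 2772 CPM in BMP2 1, BMP2 2 and BMP2 3, against 6028, 3176 and 2642 CPM in PBS 1, PBS 2 and PBS 3. The group means were 2973 ± 177 CPM with BMP2 and 3949 ± 1820 CPM with PBS (SD, n = 3 each). As a share of all estimated counts, which does not use the TMM factor, the genes took 0.326%, 0.301% and 0.301% in the BMP2 libraries and 0.525%, 0.310% and 0.273% in the PBS libraries. A single PBS library was high, and in summed CPM PBS 2 lay just above and PBS 3 just below the 3 BMP2 libraries. PBS 1 was the highest of the 6 libraries for 43 of the 44 genes, while it was the highest for 29.7% of all tested genes. The exception was Ttk. PBS 3, in contrast, was the lowest library for 24 of the 44 genes, against 10.4% of all tested genes. Relative to each gene's mean over 6 libraries on the log2 scale, the median member stood at -0.08, -0.09 and -0.19 in BMP2 1, BMP2 2 and BMP2 3, and at 0.79, -0.05 and -0.35 in PBS 1, PBS 2 and PBS 3.

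**Figure D1:**
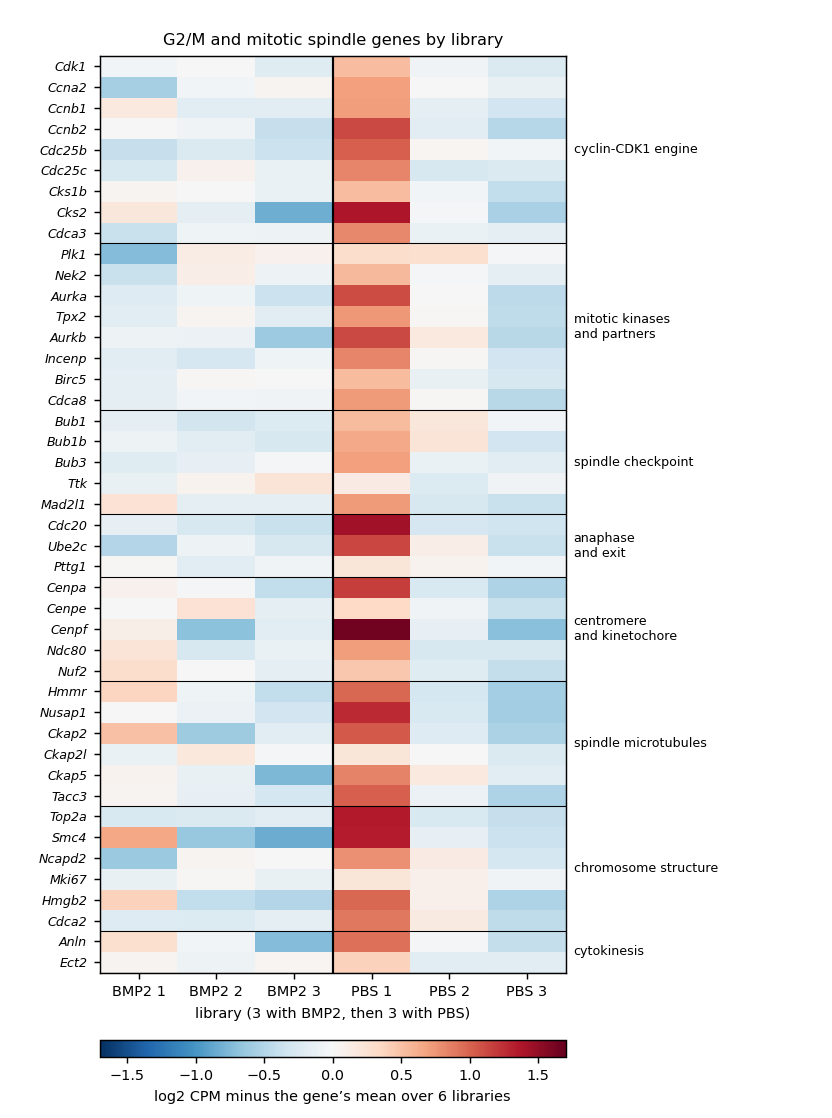
Each row is a gene, grouped by role, each column a library (BMP2 1 to 3 on the left, PBS 1 to 3 on the right), and colour is log2 CPM minus the gene's mean over the 6 libraries. The PBS 1 column is the darkest red in nearly every row, and PBS 1 was the highest library for 43 of the 44 genes.

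Set within batches, the same values read as follows. In batch 1 all 44 genes were lower with BMP2 than with PBS, and the median log2 difference was -0.90. In batch 2 the genes were divided, with 25 of 44 lower and a median of -0.03, and in batch 3, 10 of 44 were lower and the median was 0.14. Over all tested genes the batch medians were 0.02, 0.00 and 0.02, and 48.9%, 50.2% and 48.1% of genes were lower. In 18 of the 44 genes, Cdk1, Ccnb2, Top2a and Birc5 among them, BMP2 was lower in batch 1 and higher in both of the other batches. That pattern was not counted over all tested genes. The genes lower with BMP2 in all 3 batches numbered 9, or 20.5% against 21.1% of all tested genes, and were Cdc25b, Cks2, Aurkb, Bub1, Pttg1, Ckap5, Smc4, Mki67 and Anln. No member was higher in all 3 batches, which follows from all 44 being lower in batch 1. Of all tested genes 22.8% were higher in all 3.

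**Figure D2:**
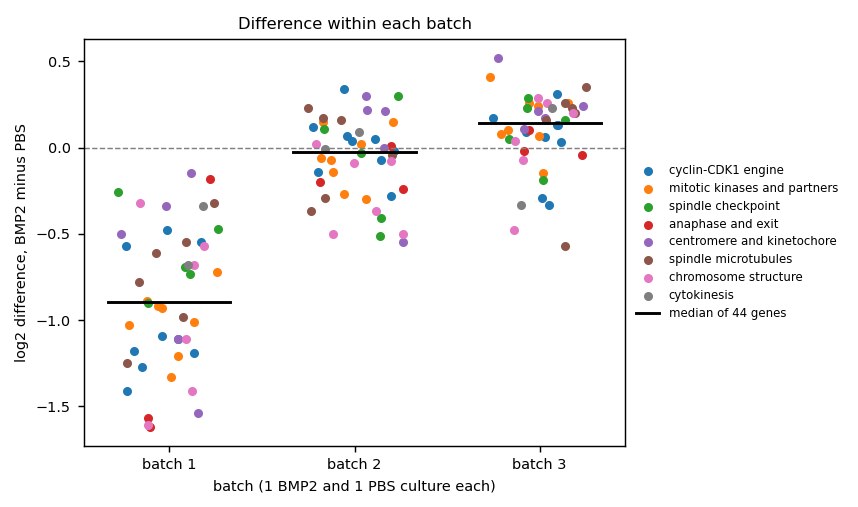
Each point is a gene, coloured by role, at its log2 difference of BMP2 minus PBS within batch 1, 2 or 3, and black lines are the medians of the 44 genes. All points of batch 1 lie below 0, with a median of -0.90, while those of batches 2 and 3 straddle 0 with medians of -0.03 and 0.14.

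Genes of this kind often carry in their promoters the cell cycle homology region, a short element read as TTTGAA or TTCGAA through which DREAM and B-MYB complexes act, downstream of CCAAT boxes, which bind NF-Y. The promoters of the members, from 250 bases before to 50 after the start in RefSeq on GRCm38.p6, were searched on both strands for these letters. Of the 44 genes, 37 had a promoter in the table, and Aurkb, Ccna2, Cdc25c, Cdca2, Incenp, Smc4 and Tpx2 did not. TTTGAA occurred in 25 of the 37 (67.6%), against 18.1% of 27025 promoters and 11.7% of those of tested genes. TTCGAA, which reads the same on both strands, occurred in 4 of 37, or 10.8%, against 1.57% and 2.19%. CCAAT occurred in 29 of 37 (78.4%), against 37.9% and 39.4%, and 25 of 37 held CCAAT with either form of the homology region (67.6%, against 7.7% and 6.1%). These are matches of letters, not mapped binding sites. The promoters of 4 genes from the cyclin-CDK1, kinase and APC/C groups, named in the plan, are shown. All 4 are among the 25 with both kinds of match. Matches on either strand are in capitals (TTTGAA or its reverse TTCAAA, and CCAAT or its reverse ATTGG).
Cdk1, chr10:69352863-69353162, minus strand: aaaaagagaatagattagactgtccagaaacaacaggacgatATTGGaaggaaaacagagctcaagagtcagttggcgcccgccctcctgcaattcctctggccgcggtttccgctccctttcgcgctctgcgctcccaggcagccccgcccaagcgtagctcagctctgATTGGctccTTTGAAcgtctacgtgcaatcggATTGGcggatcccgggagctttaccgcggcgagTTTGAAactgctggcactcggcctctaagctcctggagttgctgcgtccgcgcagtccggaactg
Ccnb2, chr9:70421505-70421804, minus strand: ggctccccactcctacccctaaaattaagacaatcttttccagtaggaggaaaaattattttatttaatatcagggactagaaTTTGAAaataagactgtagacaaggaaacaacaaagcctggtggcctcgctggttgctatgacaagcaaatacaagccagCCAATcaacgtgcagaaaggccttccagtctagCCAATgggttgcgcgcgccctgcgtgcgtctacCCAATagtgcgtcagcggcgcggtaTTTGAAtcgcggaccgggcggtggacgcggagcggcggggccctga
Plk1, chr7:122159185-122159484, plus strand: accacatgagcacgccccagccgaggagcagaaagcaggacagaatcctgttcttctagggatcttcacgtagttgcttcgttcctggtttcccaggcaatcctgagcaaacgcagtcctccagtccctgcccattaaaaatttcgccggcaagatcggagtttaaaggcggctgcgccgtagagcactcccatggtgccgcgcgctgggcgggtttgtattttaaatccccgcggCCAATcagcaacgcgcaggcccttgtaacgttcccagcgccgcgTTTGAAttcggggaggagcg
Ube2c, chr2:164769679-164769978, plus strand: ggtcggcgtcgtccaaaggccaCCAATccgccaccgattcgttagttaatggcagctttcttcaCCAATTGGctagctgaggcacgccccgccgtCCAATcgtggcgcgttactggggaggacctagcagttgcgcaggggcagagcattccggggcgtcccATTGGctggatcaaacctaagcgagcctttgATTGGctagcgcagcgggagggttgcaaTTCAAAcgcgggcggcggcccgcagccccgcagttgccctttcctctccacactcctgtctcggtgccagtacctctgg
In Cdk1 the last TTTGAA began 15 bases before the annotated start, at position -15, with the nearest CCAAT at -48. In Ccnb2, 3 CCAAT boxes at -87, -54 and -21 preceded a TTTGAA at 5. In Plk1 a CCAAT at -14 preceded a TTTGAA at 31, and in Ube2c the TTTGAA, at -29 and on the reverse strand, followed 6 CCAAT matches, a pair of which overlap in CCAATTGG.

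The cyclin-CDK1 engine held 9 genes, and all 9 log2 fold changes were below 0, with a median of -0.41 over all libraries and of -1.11, 0.04 and 0.09 within batches 1, 2 and 3. Cdk1 (ENSMUSG00000019942, GRCm38 chromosome 10, 69335146 to 69352938, minus strand) encodes the mitotic kinase itself. It was at 107, 111 and 95.4 CPM in the BMP2 libraries, against 159, 106 and 93.1 CPM in PBS 1, PBS 2 and PBS 3, a log2 fold change of -0.19 (SE 0.23, edgeR adjusted p 0.896). Apart from PBS 1 the values overlapped closely. Ccnb1, the main mitotic cyclin, was at 76.0, 59.2 and 59.4 CPM with BMP2 and at 111, 60.2 and 54.2 CPM with PBS, and its level is uncertain because 27.8% of its 31-mers are shared with other genes. Ccna2, the cyclin of S and G2 phase, was at 79.7, 114 and 122 CPM with BMP2 and at 192, 119 and 108 CPM with PBS. In this gene BMP2 1 was the lowest library and PBS 1 the highest, both of batch 1.

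Cdc25b encodes a phosphatase that removes the inhibitory phosphates from CDK1 at mitotic entry. Its CPM values were 43.0, 47.7 and 43.8 with BMP2, against 114, 58.0 and 55 with PBS. It was 1 of 2 members, with Bub1, whose groups did not overlap, all BMP2 libraries lying below all PBS libraries. Such a separation to the lower side was seen in 4.55% of the members and 5.72% of all tested genes. The opposite separation was seen in 0 of 44 members and 6.42% of all tested genes. It could not occur in the 43 members for which PBS 1 was the highest library. The log2 fold change of Cdc25b was -0.76 (SE 0.30), with -1.41, -0.28 and -0.33 in batches 1, 2 and 3, and it did not pass over all genes (edgeR adjusted p 0.883, or 0.247 with the block). Cdc25c, a phosphatase of the same family, averaged 13.5 ± 1.58 CPM with BMP2 and 16.6 ± 7.85 CPM with PBS (SD, n = 3 each), and Ccnb2, another B-type cyclin, 79.4 ± 11.2 and 110 ± 69.9 CPM. Cdca3, which takes part in the removal of the CDK1 inhibitor WEE1, averaged 122 ± 13.9 CPM with BMP2 and 164 ± 67.4 CPM with PBS. The small CDK-binding proteins encoded by Cks1b and Cks2 differed in how much PBS 1 stood out, at 1.54 times the mean of the other 5 libraries for Cks1b and 3.04 times for Cks2. Cks2 was at 58.9, 46.0 and 28.8 CPM in the BMP2 libraries and 133, 50.6 and 35.2 CPM in the PBS libraries. Both batch 1 libraries were thus the highest of their group, and the log2 difference was below 0 in each batch (-1.18, -0.14 and -0.29). Per kilobase of its longest transcript Cks2 had the highest level of the 44 genes, 85.0 CPM per kb as a mean of 6 libraries, although 31.7% of its 31-mers are shared with other genes.

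The 8 genes of mitotic kinases and their partners all had log2 fold changes below 0. Their median was -0.31, and the batch medians were -0.97, -0.06 and 0.17. Aurka encodes Aurora A, which matures centrosomes and builds the spindle. It was at 70.5, 77.8 and 63.6 CPM with BMP2 and at 177, 81.4 and 60.1 CPM with PBS, and its log2 fold change was -0.59 (SE 0.37, edgeR adjusted p 0.883). Its activator Tpx2 was at 135, 160 and 135 CPM in BMP2 libraries, against 258, 157 and 115 CPM in PBS libraries. Both genes were thus set apart in PBS 1 alone, and PBS 3 was the lowest library for each. Aurkb, Incenp, Birc5 and Cdca8 encode the chromosomal passenger complex, which corrects faulty attachments and guides cytokinesis, with AURKB as the kinase, INCENP as the scaffold and survivin (BIRC5) and borealin (CDCA8) as the subunits that place it at centromeres. Aurkb was at 59.2, 58.3 and 40.7 CPM with BMP2 and at 137, 70.1 and 45.1 CPM with PBS, lower with BMP2 in each batch by 1.21, 0.27 and 0.15 on the log2 scale (log2 fold change -0.67, SE 0.39, adjusted p 0.883, or 0.283 with the block). Incenp, at 38.4, 35.7 and 41.4 CPM in BMP2 libraries and 77.4, 43.9 and 34.6 CPM in PBS libraries, and Birc5, at 81.7, 93.5 and 91.6 CPM and 134, 84.2 and 76.4 CPM, were higher with BMP2 in batch 3. Cdca8 averaged 34.9 ± 1.58 CPM with BMP2 and 42.0 ± 17.7 CPM with PBS (SD, n = 3 each).

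Plk1, the Polo-like kinase of mitotic entry and spindle assembly, differed from the other kinase genes. Its CPM values were 33.9, 61.4 and 59.2 with BMP2, against 69.1, 67.8 and 55.2 with PBS. Here BMP2 1 was low and PBS 1 barely above PBS 2, at 1.25 times the mean of the other 5 libraries. The batch 1 difference for Plk1 was -1.03, with BMP2 1 far below BMP2 2 and BMP2 3. Of the 31-mers of Plk1, 14.8% are shared with other genes. Nek2, a kinase of centrosome separation, was at 10.9, 15.3 and 13.4 CPM with BMP2 and at 20.7, 13.8 and 12.7 CPM with PBS, again with BMP2 1 as the lowest library.

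**Figure D3:**
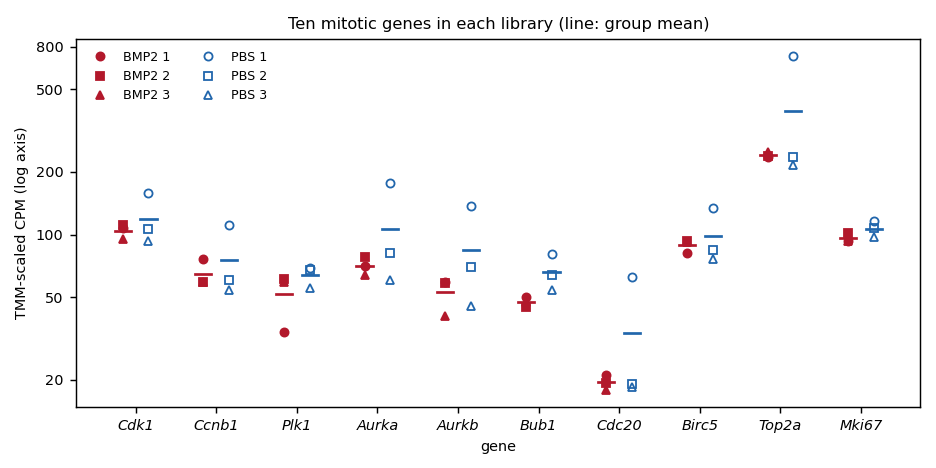
TMM-scaled CPM on a log axis is plotted for 10 mitotic genes, with filled red symbols for BMP2 and open blue symbols for PBS, a symbol shape for each batch, and short lines at the group means. The open circle of PBS 1 lies far above the other points for Aurka, Cdc20 and Top2a (721 CPM) and close to the next point for Mki67 (116 CPM) and Plk1 (69.1 CPM).

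The 5 spindle checkpoint genes had a median log2 fold change of -0.31. Bub1, a kinase that brings checkpoint proteins to the kinetochore, was at 50.1, 44.7 and 47.3 CPM with BMP2, against 80.5, 63.7 and 53.8 CPM with PBS. Its groups did not overlap, and it was lower with BMP2 in each batch, by 0.69, 0.51 and 0.19 on the log2 scale. The log2 fold change was -0.48 (SE 0.20) without the block and -0.46 (SE 0.14) with it, and Bub1 passed in neither (edgeR adjusted p 0.883 and 0.212). Bub1b, which encodes the APC/C inhibitor BUBR1, was at 36.3, 33.7 and 31.8 CPM with BMP2 and 60.1, 44.9 and 30.7 CPM with PBS. Bub3, the partner of both, was at 161, 169 and 182 CPM with BMP2 and 301, 173 and 163 CPM with PBS. Mad2l1, which encodes the checkpoint protein MAD2, was at 133, 99.9 and 100 CPM in BMP2 libraries, against 185, 92.3 and 85.8 CPM in PBS libraries, high in both libraries of batch 1. Ttk, the apical checkpoint kinase MPS1, was the exception to the common pattern. It was at 8.08, 9.23 and 10.3 CPM with BMP2 and 9.69, 7.48 and 8.44 CPM with PBS, with BMP2 3 as the highest library and a log2 fold change of 0.11 (SE 0.24, edgeR adjusted p 0.942).

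The 3 genes of anaphase onset and mitotic exit had the lowest median among the groups, a log2 fold change of -0.70, and within batch 1 a median of -1.57. Cdc20, the APC/C activator that the checkpoint restrains, was at 21.1, 19.3 and 17.9 CPM with BMP2 and at 62.8, 19.1 and 18.4 CPM with PBS. Outside PBS 1 its values lay between 17.9 and 21.1 CPM, and PBS 1 was 3.28 times the mean of those 5 libraries. Ube2c, the E2 enzyme that works with the APC/C, was at 66.4, 87.9 and 77.6 CPM in the BMP2 libraries, against 205, 101 and 72.3 CPM in the PBS libraries, a log2 fold change of -0.70 (SE 0.36, adjusted p 0.883). It had the most negative difference of any member in batch 1, -1.62. Cdc20 and Ube2c share 25.2% and 24.0% of their 31-mers with other genes. Pttg1 encodes securin, the APC/C substrate that keeps separase inactive, and it varied little, at 38.5, 33.4 and 36.3 CPM with BMP2 and 43.7, 39.3 and 36.8 CPM with PBS. Its batch differences of -0.18, -0.24 and -0.02 were small beside those of Cdc20 and Ube2c in batch 1.

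Of the 5 centromere and kinetochore genes, 3 had log2 fold changes below 0 and 2 above, with a median of -0.17. Cenpf, a large kinetochore and nuclear matrix protein, was the gene in which PBS 1 stood out most, at 3.82 times the mean of the other 5 libraries. It was at 28.1, 16.2 and 22.9 CPM with BMP2 and 81.8, 23.8 and 16 CPM with PBS, and its batch differences were -1.54, -0.55 and 0.52. Its log2 fold change of -0.85 (SE 0.57) was the most negative of the 44 and had the largest SE (edgeR adjusted p 0.883). Cenpa, the centromeric histone H3 variant, was at 34.9, 32.5 and 24.9 CPM in BMP2 libraries, against 75.1, 27.8 and 23.1 CPM in PBS libraries. Ndc80 and Nuf2 encode subunits of the complex that binds microtubules at the outer kinetochore. Ndc80 averaged 16.5 ± 2.87 CPM with BMP2 and 18.6 ± 7.95 CPM with PBS, and Nuf2 55 ± 9.17 and 52.5 ± 17.1 CPM (SD, n = 3 each). For both genes BMP2 1 ranked next after PBS 1, and their log2 fold changes were -0.17 and 0.07. Cenpe, a kinetochore motor of the kinesin family, averaged 19.8 ± 2.9 CPM with BMP2 and 19.3 ± 4.85 CPM with PBS.

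The 6 spindle microtubule genes that were measured had a median log2 fold change of -0.35. Ckap5 encodes a microtubule polymerase of the XMAP215 family and was at 230, 203 and 130 CPM with BMP2 and 397, 249 and 194 CPM with PBS. It was lower with BMP2 in each batch, by 0.78, 0.29 and 0.57 on the log2 scale, with a log2 fold change of -0.57 (SE 0.32, edgeR adjusted p 0.883) and of -0.55 (SE 0.15, 0.168) with the block. Tacc3, which recruits that polymerase to the spindle, did not share this pattern and was at 55, 48.4 and 43.3 CPM in BMP2 libraries and 108, 49.7 and 36.9 CPM in PBS libraries. Nusap1, a microtubule-bundling protein, was at 77.4, 71.7 and 61.1 CPM with BMP2, against 184, 64.0 and 51.1 CPM with PBS, lower with BMP2 in batch 1 and higher in the others. Hmmr, which encodes the spindle protein RHAMM, was at 72.4, 53.6 and 42.1 CPM with BMP2 and at 111, 45.8 and 37.8 CPM with PBS. Ckap2 averaged 25.3 ± 9.87 CPM with BMP2 and 31 ± 19.3 CPM with PBS, and its relative Ckap2l 56 ± 5.97 and 55.6 ± 8.65 CPM (SD, n = 3 each). For Ckap2l, a spindle protein as well, the log2 fold change was 0.01 (SE 0.19).

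In the chromosome group all 6 log2 fold changes were below 0, with a median of -0.47. Top2a encodes topoisomerase II alpha, which untangles sister chromatids. It was at 236, 239 and 248 CPM with BMP2, against 721, 237 and 216 CPM with PBS, so that 5 libraries lay close together and PBS 1 was 3.07 times their mean (log2 fold change -0.70, SE 0.44, edgeR adjusted p 0.883). Mki67, the gene of the proliferation antigen Ki-67, a coat of mitotic chromosomes, was at 92.8, 102 and 92.7 CPM with BMP2 and 116, 107 and 97.2 CPM with PBS. PBS 1 was only 1.18 times the mean of the others for Mki67, and the log2 fold change of -0.16 had the smallest SE of the 44 genes, 0.17 (adjusted p 0.892). The condensin subunit genes differed from each other. Smc4, shared by both condensins, was at 124, 50.6 and 44.1 CPM with BMP2 and 199, 71.6 and 61.5 CPM with PBS, so both libraries of batch 1 were high. Its differences within batches were nearly equal, at -0.68, -0.50 and -0.48, and its log2 fold change was -0.60 (SE 0.54) without the block and -0.56 (SE 0.12) with it (edgeR adjusted p 0.884 and 0.123). Ncapd2, of condensin I, was at 96.0, 154 and 148 CPM with BMP2 and 255, 164 and 121 CPM with PBS, with BMP2 1 as the lowest library and batch differences of -1.41, -0.09 and 0.29. Cdca2, which brings protein phosphatase 1 to chromosomes at mitotic exit, was at 20, 19.9 and 20.7 CPM with BMP2 and at 43.3, 25.8 and 17.3 CPM with PBS. Hmgb2, a chromatin protein, averaged 41.5 ± 15.3 CPM with BMP2 and 55.6 ± 29.3 CPM with PBS (SD, n = 3 each), and 21.4% of its 31-mers are shared.

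The pair of cytokinesis genes differed mainly in batch 3. Anln encodes anillin, which organises the contractile ring, and was at 144, 116 and 71.6 CPM with BMP2, against 229, 117 and 90.2 CPM with PBS. Ect2, the exchange factor that activates RHOA at the cell equator, was at 56.5, 51.1 and 55.6 CPM with BMP2 and 71.4, 48.1 and 47.5 CPM with PBS. In batch 3 the log2 difference was -0.33 for Anln and 0.23 for Ect2, and neither gene passed (log2 fold changes -0.40 and -0.03, edgeR adjusted p 0.886 and 0.982).

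PBS 1 was at least 1.5 times the mean of the other 5 libraries for 36 of the 44 genes, or 81.8%, against 18.4% of all tested genes. The ratio had a median of 1.92 and ranged from 1.11 for Ttk to 3.82 for Cenpf. The 8 genes below 1.5 came from every role group but the cyclin-CDK1 engine, and were Plk1, Ttk, Pttg1, Cenpe, Nuf2, Ckap2l, Mki67 and Ect2. A further distinction was the library that came next. For 18 of the 44 genes, including Cks2, Mad2l1, Hmmr, Smc4, Hmgb2 and Anln, BMP2 1 ranked next after PBS 1, against 14.0% of all tested genes. For 8 others, including Ccna2, Plk1, Ube2c and Ncapd2, BMP2 1 was the lowest of the 6 libraries, a pattern not counted over all tested genes. High values in batch 1 were thus common to both of its cultures for some genes, such as Smc4, and to PBS 1 alone for others. A second rank did not always mean a raised level. Cdc20, 1 of the 18, was at 21.1 CPM in BMP2 1 and 19.3 CPM in BMP2 2.

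Without PBS 1 the median log2 fold change of the 44 genes was 0.08, with 16 of 44 below 0 and 28 above, and 24 of 44 changed sign. No member passed then (edgeR lowest adjusted p 0.912), against 3 of 13121 tested genes, and 0 of 44 had an unadjusted p under 0.05. Cenpf moved most, to 0.17 from -0.85 over all libraries, and Cdc20 was at 0.04 and Top2a at 0.09. Cdc25b, Bub1 and Ckap5 remained below 0, at -0.34, -0.32 and -0.24. With both libraries of batch 1 left out and the block kept, the median was 0.05. No member passed there, while 531 of 12909 tested genes did. Smc4 came nearest, at -0.50 (SE 0.11, edgeR adjusted p 0.0594). Without batch 3, again with the block, the median was -0.49. In that fit 1 of 44 members passed, against 218 of 13165 tested genes. That member was Cenpf, at -1.05 (SE 0.27, edgeR adjusted p 0.0394). These fits with 2 batches leave 1 residual degree of freedom.

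**Figure D4:**
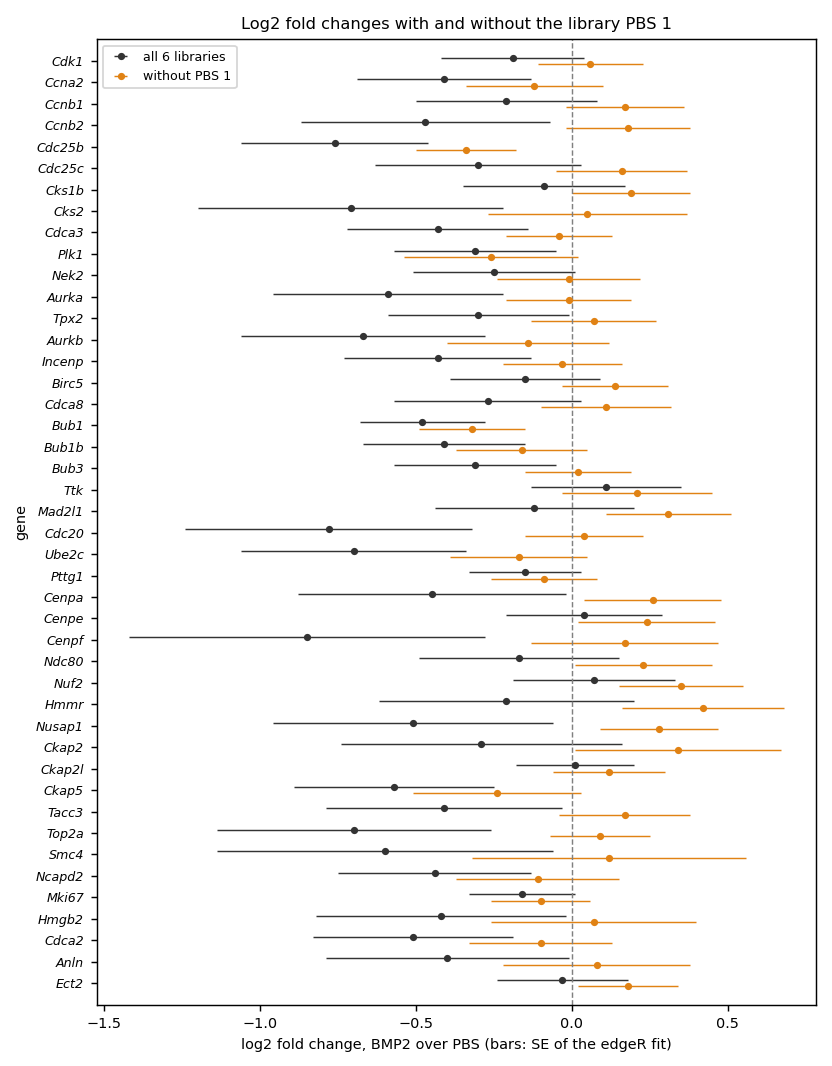
Log2 fold changes of BMP2 over PBS are plotted for the 44 genes, with bars for the SE of the edgeR fit, in black for all 6 libraries and in orange without PBS 1. Most black points lie left of 0 (median -0.40) and the orange points scatter around it (median 0.08), with Cdc25b and Bub1 left of 0 in both.

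The other lists of cell cycle genes gave the context for PBS 1. The shares of all tested genes to set beside these lists, and those further below, are as follows. An unadjusted p under 0.05 in edgeR's test was seen in 5.38% without the block and 17.0% with it. PBS 1 was the highest library for 29.7%. Of 74 further mitotic genes, such as mitotic kinesins, inner kinetochore proteins, condensin and cohesin subunits, 71 were tested and 0 passed in edgeR's test, with or without the block (0 at an unadjusted p under 0.05 without the block and 5 with it). On the log2 scale their median was -0.10 (batch medians -0.50, 0.13 and 0.22), and PBS 1 was the highest library for 49 of 71. Those with the smallest unadjusted p were Cenpt, of the constitutive centromere network, at 10.3 ± 1.12 CPM with BMP2 and 7.39 ± 0.082 CPM with PBS, Arhgap11a, a GTPase-activating protein, at 26.5 ± 2.48 and 48.8 ± 33.9 CPM, and the chromokinesin gene Kif22 at 26.8 ± 4.24 and 43.1 ± 20.7 CPM (SD, n = 3 each, adjusted p 0.883 for each). Of 45 genes of G1/S and DNA replication, 0 passed in either fit (0 at an unadjusted p under 0.05 without the block and 3 with it). The median of these genes was 0.12 on the log2 scale (batch medians -0.28, 0.15 and 0.36), and PBS 1 was the highest library for 16 of 45. Relative to each gene's mean, the median replication gene stood at 0.13 in PBS 1 and the median G2/M gene at 0.79. In this list the smallest unadjusted p values belonged to the thymidylate synthase gene Tyms (log2 fold change 0.77, SE 0.34), Ccne1, which encodes cyclin E1 (-0.52, SE 0.27), and Ccnd1, which encodes cyclin D1 (0.80, SE 0.42), each at an edgeR adjusted p of 0.883.

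Genes of the transcription factors known to drive or repress G2/M genes stood on both sides of their means in PBS 1. The level in PBS 1 was 0.474 times the mean of the other 5 libraries for Tfdp1 and 3.00 times for E2f7, the extremes of the list, and the median relative to each gene's mean was 0.03 on the log2 scale. The 23 genes of that list, including those of FOXM1, B-MYB and the DREAM subunits, had a median log2 fold change of 0.00, and 0 passed in either fit (0 at an unadjusted p under 0.05 without the block and 4 with it). PBS 1 was the highest library for 7 of the 23. Foxm1, chosen for its known role after its values were seen, was at 48.2, 73.1 and 95.6 CPM with BMP2 and 80.6, 76.4 and 71.8 CPM with PBS. Mybl2, chosen likewise, was at 5.41, 12.8 and 16.8 CPM with BMP2 and 7.25, 11.5 and 11.3 CPM with PBS, lowest in the libraries of batch 1. The smallest unadjusted p values were those of Rb1 (log2 fold change -0.57, SE 0.27), Trp53 (-0.45, SE 0.25) and E2f2 (0.77, SE 0.45), each at an adjusted p of 0.883. Of 23 brakes on mitotic entry and APC/C subunits, 0 passed in either fit (2 at an unadjusted p under 0.05 without the block and 4 with it), and the median was -0.06. PBS 1 was the highest library for 12 of these 23 genes, against 29.7% of all tested genes. Wee1, the kinase that holds CDK1 inactive, was at 12.5 ± 0.638 CPM with BMP2 and 17.9 ± 1.64 CPM with PBS, lower in each batch (log2 fold change -0.52, SE 0.20, adjusted p 0.858). Fbxo5, which encodes the APC/C inhibitor EMI1, was at 13.4 ± 1.72 and 31.4 ± 24.8 CPM, with PBS 1 at 4.03 times the mean of the other 5 libraries, and Cdkn1b, which encodes the CDK inhibitor p27, at 412 ± 160 and 676 ± 172 CPM (log2 fold change -0.72, SE 0.33, adjusted p 0.883, or 0.0846 with the block).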

How the data were processed

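Messenger RNA was sequenced from 3 BMP2 and 3 PBS cultures of B16F10 spheroids, with TruSeq libraries from 500 ng of total RNA per the labels' protocols. The authors deposited estimated counts for each gene, most of them not whole. Per the submitters' processing notes, kallisto 0.44.0 and the mouse build GRCm38.p6 were used. The annotation, the summing of transcripts to genes and the strand setting were not stated there. Because kallisto shares ambiguous reads between transcripts by likelihood, levels of genes with close copies are less certain.

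Of 34981 identifiers, 34679 matched GENCODE M21 for symbols, positions and lengths. The deposited counts were rounded, filtered by the default of edgeR 4.0.16 (R 4.3.3), scaled by trimmed mean of M values (TMM) and tested with the quasi-likelihood test on treatment alone, with Benjamini-Hochberg adjustment over 12929 genes at 0.05. SEs were worked back from the F statistic. Differences within batches used log2 CPM with a prior count of 2. Shared 31-mers were counted over annotated transcripts. At least 10% were shared with other genes in 10 members, whose levels are less certain. These were Ccna2, Ccnb1, Cdc25c, Cks1b, Cks2, Plk1, Cdc20, Ube2c, Ckap2 and Hmgb2. Scripts were tested on simulated data.

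The labels tie replicate numbers to batches, and deviations from group means correlated at 0.514, 0.248 and 0.518 within batches 1, 2 and 3, so a fit with batch as a block was made too. It leaves 2 residual degrees of freedom, against 4. Whether the cultures of a group are more than repeats of the same line is not stated, so p-values measure the spread between these 3 repeats. At the lowest depth 3 counts correspond to 0.103 CPM.

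Alternatives were other filters, DESeq2 size factors, quantile normalization with limma 3.58.1, the Wald test of DESeq2 1.42.0, a GC and length correction, summing of near-identical genes and leaving out libraries or batches. The members, lists and the naming rule were chosen with earlier results of these data known. Every member is named. Libraries are given one by one for 10 well-known members and for up to 2 more per role with the smallest unadjusted p, and other lists by up to 3 genes. Further members shown by library (Cks2, Nek2, Mad2l1, Ttk, Tacc3, Hmmr and Smc4) were chosen after their values were seen.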

Additional observations from a re-analysis of the deposited data

How the results depend on the processing

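The count of members that passed, 0, held under every alternative except the blocked fit without batch 3, where Cenpf passed, so the count was 0 to 1 lower with a library or batch left out. The median log2 fold change of the members was -0.24 to -0.42 under the alternatives that kept all libraries, and -0.58 to 0.08 with a library or batch left out. Over all genes the fit called 1 higher and 5 lower. The numbers were 48 and 47 with the replicate block, 61 and 47 with the block and the GC and length correction, 62 and 68 with the DESeq2 Wald test, 19 and 16 with no filter, 0 higher at a mean of 100 counts, 2 higher with quantile normalization, 0 and 1 with near-identical genes summed, and 0 to 223 higher and 2 to 308 lower with a library or batch left out. The causes were not tested. The block changed no call among the members. Signs near 0 turned for Ckap2l (0.00 with DESeq2 size factors and with the Wald test, and -0.08 with the GC and length correction and the block), Mad2l1 (0.03) and Ect2 (0.02) with quantile normalization, and Cks1b (0.05) with the GC and length correction and the block. With a library or batch left out the following log2 fold changes took either sign, in most cases without PBS 1 or batch 1: Cdk1 -0.34 to 0.06, Ccna2 -0.67 to 0.04, Ccnb1 -0.40 to 0.17, Ccnb2 -0.74 to 0.18, Cdc25c -0.48 to 0.23, Cks1b -0.28 to 0.19, Cks2 -1.04 to 0.05, Cdca3 -0.59 to 0.05, Nek2 -0.42 to 0.10, Aurka -0.87 to 0.00, Tpx2 -0.53 to 0.12, Birc5 -0.29 to 0.20, Cdca8 -0.50 to 0.16, Bub3 -0.47 to 0.06, Mad2l1 -0.31 to 0.31, Cdc20 -1.07 to 0.04, Cenpa -0.74 to 0.26, Cenpe -0.11 to 0.25, Cenpf -1.23 to 0.17, Ndc80 -0.34 to 0.23, Nuf2 -0.09 to 0.35, Hmmr -0.48 to 0.42, Nusap1 -0.82 to 0.28, Ckap2 -0.64 to 0.34, Ckap2l -0.09 to 0.18, Tacc3 -0.69 to 0.17, Top2a -0.98 to 0.10, Smc4 -1.22 to 0.12, Ncapd2 -0.75 to 0.09, Hmgb2 -0.76 to 0.07, Anln -0.65 to 0.08, Ect2 -0.13 to 0.18. Within that, Birc5 was at 0.14, Cdca8 at 0.11 and Cenpe at 0.24 without PBS 1, Ect2 at 0.15 without batch 1 (block), Cenpe and Ckap2l at -0.06 without batch 2 and Cenpe at -0.02 without batch 3. All-gene calls without batch 2 were 9 higher and 18 lower, and without batch 3 115 and 103. A fit without a library leaves a group of 2 and breaks a batch pair.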
